A study of Mus musculus with 53 samples.

Results

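Macrophage and leukocyte identity genes were followed through mouse hearts in which RNA had been taken either from the whole cytoplasm or from tagged ribosomes. The genes were Csf1r, Cx3cr1, Emr1, Cd68, Cd14, Mrc1, Cd163, Fcer1g, Tyrobp and Cd52, chosen by name, and all 10 had a row among the 34306 genes of the deposited expression table. All 10 also reached 1 RPKM (a read count divided by transcript length and library size) in at least 2 libraries, the minimum for testing that 11654 genes met. In the 6 input libraries every member was at 1 RPKM or more. In the 5 CAG TRAP libraries Cd163 was below that level in 5, Mrc1 in 4 and Emr1 in 1. Cd163 and Mrc1 thus entered the test mainly through the libraries where they were high. Their calls in TRAP against input, and counts that include them, are descriptions.

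The hearts came from adult mice and gave 12 libraries. Input libraries held cytoplasmic RNA of the whole heart. TRAP (translating ribosome affinity purification) libraries held the RNA bound to a tagged ribosomal protein that had been pulled down from the same kind of tissue. In CAG hearts the tag was carried by every lineage, and in Tie2 hearts it was switched on by a Cre recombinase under the Tie2 promoter, which the labels describe as endothelial. As background, Tie2-Cre is also known to recombine in haematopoietic cells and their progeny. CAG hearts after ligation of the ascending aorta (band) and after the same operation with no ligature (sham) each gave 2 input and 2 TRAP libraries. Hearts with no surgery gave 1 input and 1 TRAP library of CAG and the same of Tie2. Operated mice were male, and the sex of the others and the time after surgery were not given in the sources used here. A 129/C57BL mixed background is stated for the first of the study's deposits, whose libraries were not analysed here. RNA was pooled before library preparation and nothing says that libraries of a group came from separate animals, so each p-value measures only the spread between libraries, which may be technical.

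Resident macrophages are the main leukocytes of the healthy mouse heart, where they lie between the muscle cells and along vessels. Their survival depends on the receptor encoded by Csf1r, which binds the cytokines Csf1 and Il34. Some activating receptors of macrophages lack signalling tails of their own. They pass signals through the small adaptor proteins encoded by Fcer1g and Tyrobp, whose ITAM motifs (paired tyrosines) recruit the kinase Syk. Much of this gene programme is known to depend on the transcription factor PU.1, encoded by Spi1, listed in the table under its older symbol Sfpi1.

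Short sequences rich in purines around GGAA are the known recognition sites of PU.1. For 5 of the 10 genes, a window of 250 bases directly upstream of the annotated transcription start was used (RefSeq, mouse build GRCm38.p6). The letters GAGGAA, or TTCCTC on the other strand, were searched in these windows because they form the core of the usual PU.1 site. They occurred in 2 of the 5 windows, those of Cd68 and Mrc1, and in 23.3% of all 32851 windows of that length. Any member window on a set-aside chromosome was left out, whereas the share over all windows had no such exclusion. The windows of Cd163, Fcer1g and Cx3cr1 did not hold these letters. Both windows with a match are shown here because they are the ones in which these letters can be seen. Each reads 5′ to 3′ on the gene's strand up to the base before the start, with the matched letters in capitals. The Cd68 window is chr11:69666171-69666420 on the minus strand and the Mrc1 window is chr2:14229164-14229413 on the plus strand.
Cd68: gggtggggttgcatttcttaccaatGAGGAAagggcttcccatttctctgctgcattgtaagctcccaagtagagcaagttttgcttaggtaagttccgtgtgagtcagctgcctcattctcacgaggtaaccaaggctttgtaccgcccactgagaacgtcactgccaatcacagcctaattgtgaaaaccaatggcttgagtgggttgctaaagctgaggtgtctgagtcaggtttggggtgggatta
Mrc1: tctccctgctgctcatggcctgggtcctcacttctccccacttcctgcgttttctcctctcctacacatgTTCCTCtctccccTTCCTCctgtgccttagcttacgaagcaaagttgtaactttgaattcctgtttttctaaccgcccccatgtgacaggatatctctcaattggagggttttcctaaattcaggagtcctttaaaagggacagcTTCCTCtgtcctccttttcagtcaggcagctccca
The single match of Cd68 began 225 bases before the start, and the 3 matches of Mrc1 began 180, 167 and 35 bases before it. A match is only a description of the letters, and no binding was measured in these hearts.

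Library totals, recovered as whole reads from the RPKM steps, ran from 26568988 to 94878619 reads. A member was supported by 66 reads (Cd163 in band TRAP library 2) to 22352 reads (Tyrobp in Tie2 TRAP). Cardiomyocyte markers dominated every input and every CAG TRAP library, with 51628 to 70780 summed RPKM over 8 genes, as the heart label implies. In Tie2 TRAP they summed to 3359, and the 10 endothelial markers summed to 12577 against 1383 in Tie2 input. Band TRAP library 1 stood apart from library 2. The median member differed between these 2 libraries by 0.54 on the log2 scale, against 0.08 between the sham inputs, 0.14 between the sham TRAP libraries and 0.24 between the band inputs. In 9 of the 10 members the value was higher in band TRAP library 1, as it was for 7 of the 10 endothelial and 7 of the 8 fibroblast markers. Endothelial markers summed to 1706 RPKM in library 1 against 870 in library 2, of which Fabp4, a fatty acid carrier, gave 1603 and 785 and the other 9 summed to 103 and 85.5. Fibroblast markers summed to 160 RPKM against 102. The part of these other cells in the members' spread was not tested.

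**Figure D1:**
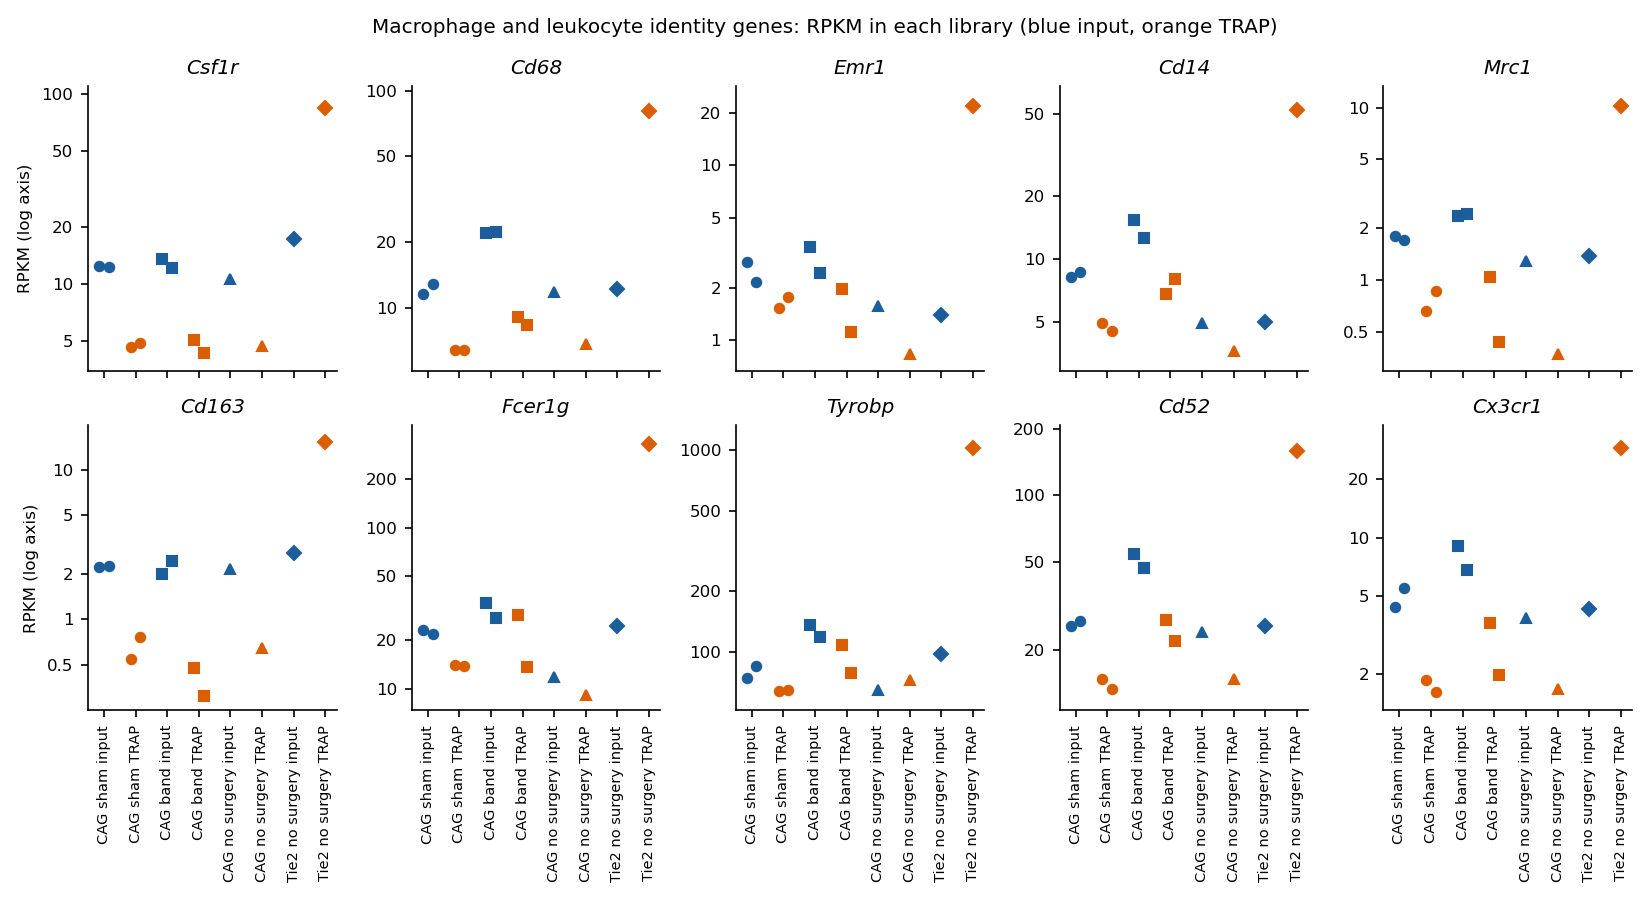
RPKM of each of the 10 genes (log axis) in the 12 libraries, with 1 point a library, input in blue and TRAP in orange. Every gene was highest in Tie2 TRAP, from 10.3 RPKM for Mrc1 to 1024 for Tyrobp, and the sham and band TRAP points lie below the corresponding input points for all genes except Fcer1g after banding.

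Levels per length of transcript ranked the members in much the same order in every group. In sham input, Tyrobp was highest at 79.3 ± 7.55 RPKM (SD, n = 2), followed by Cd52 at 26.4 ± 1.08 and Fcer1g at 22.5 ± 0.844. Csf1r at 12.4 ± 0.130 and Cd68 at 12.2 ± 0.946 came next, and their libraries overlapped. Cd14 at 8.46 ± 0.313 and Cx3cr1 at 4.97 ± 0.817 were in the middle. The lowest were Emr1 at 2.47 ± 0.459 and Cd163 at 2.25 ± 0.0110, whose libraries overlapped, and Mrc1 at 1.75 ± 0.0672. In band input Cd68 (22.2 ± 0.232) and Cd14 (14.0 ± 1.90) stood above Csf1r (12.8 ± 1.05) in their means, although the libraries of Cd14 and Csf1r overlapped. Ptprc, which encodes the pan-leukocyte surface protein CD45, lay between 0.323 and 0.588 RPKM in the operated input libraries and reached 1.22 RPKM in Tie2 TRAP, and with 1 such library it was not tested.

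The first question was how much of each transcript was recovered on tagged ribosomes of all lineages. In CAG sham hearts 7 of the 10 members were lower in TRAP than in input and none was higher, while 24.5% of all tested genes were called lower (limma on log2(RPKM + 1), Benjamini-Hochberg adjusted p under 0.05). Their median log2 fold change was -0.78, against -0.09 over all tested genes. Both TRAP libraries lay below both input libraries for all 10 members, as they did for 46.9% of all tested genes. In band hearts 8 of 10 were lower and none higher, with a median of -0.998 against -0.10 and 26% of all genes called lower. Why the members were lower in TRAP than in input was not tested.

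Among the receptors that mark the lineage, Csf1r was 12.5 and 12.3 RPKM in sham input and 4.69 and 4.87 in sham TRAP. After banding it was 13.6 and 12.1 RPKM in input and 5.07 and 4.36 in TRAP. The groups were far apart in both settings, and Csf1r fell by 1.21 (SE 0.0983) on the log2 scale in sham TRAP (adjusted p = 0.000483, limma) and by 1.28 in band TRAP (adjusted p = 0.000305). Cx3cr1, the receptor of the membrane-bound chemokine Cx3cl1, was 4.40 and 5.55 RPKM in sham input and 1.86 and 1.63 in sham TRAP. Its fall was 1.12 (SE 0.225) on the log2 scale, with an adjusted p of 0.00873 (limma), and in band hearts it fell by 1.249 (adjusted p = 0.00507). The sham call was lost without library 2 of sham input (adjusted p = 0.0620) and without library 2 of sham TRAP (adjusted p = 0.0555). Emr1, a macrophage adhesion receptor now called Adgre1, had 2.79 and 2.15 RPKM in sham input and 1.52 and 1.78 in sham TRAP. Its groups did not overlap, but the log2 difference of -0.38 (SE 0.199) missed the threshold (adjusted p = 0.163). In band hearts Emr1 fell by 0.64, just past the threshold (adjusted p = 0.0376, limma). That call was lost without any of the 4 sham libraries, without library 1 of band input and without library 2 of band TRAP, with adjusted p up to 0.204. It was also lost after quantile normalization, where the difference was -0.41 (adjusted p = 0.0784), and without the filter on low values (adjusted p = 0.120).

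All 4 phagocytic and scavenger receptors fell in both settings. Cd163, the receptor that clears haemoglobin bound to haptoglobin, was 2.24 and 2.26 RPKM in sham input but 0.547 and 0.761 in sham TRAP. After banding it was 2.01 and 2.46 RPKM in input and 0.475 and 0.309 in TRAP. The mean RPKM in TRAP was thus 0.291 of input in sham and 0.175 in band hearts, the lowest ratio of any member in each. On the log2(RPKM + 1) scale, which understates changes of low genes, Cd163 fell by 0.98 in sham (SE 0.119, adjusted p = 0.00159, limma) and by 1.22 in band (adjusted p = 0.000604). Cd163 was below 1 RPKM in every CAG TRAP library, so these p-values, like those of Mrc1 below, are descriptions. Mrc1, the mannose receptor, went from 1.797 and 1.70 RPKM in sham input to 0.665 and 0.858 in sham TRAP, and from 2.34 and 2.42 to 1.04 and 0.436 in band hearts. It fell by 0.64 in sham (adjusted p = 0.0202, limma) and by 0.98 in band (adjusted p = 0.00390), and the sham call was lost when any of the 4 sham libraries was left out, with adjusted p up to 0.111. The sham call of Mrc1 was also lost without the filter on low values (adjusted p = 0.0734) and with the length trend of each library removed, where the difference was -0.43 (adjusted p = 0.0712). Cd68, a lysosomal membrane protein of phagocytes, was 11.5 and 12.9 RPKM in sham input and 6.41 and 6.38 in sham TRAP. Its band values were 22.1 and 22.4 RPKM in input and 9.09 and 8.30 in TRAP. Cd68 fell by 0.83 in sham (SE 0.0889, adjusted p = 0.00104, limma) and by 1.26 in band TRAP (adjusted p = 0.000227). Cd14, the co-receptor through which lipopolysaccharide reaches Tlr4, was 8.24 and 8.68 RPKM in sham input and 4.94 and 4.52 in sham TRAP. It fell by 0.72 in sham (adjusted p = 0.00450) and by 0.83 in band hearts (adjusted p = 0.00232, limma).

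Neither adaptor of the ITAM pathway was called in either setting with all libraries and the values as deposited, but this depended on the libraries used and, for Tyrobp, on the filter and the scaling. Tyrobp was 73.9 and 84.6 RPKM in sham input and 63.9 and 65.0 in sham TRAP, a log2 difference of -0.29 (SE 0.156, adjusted p = 0.177, limma). After banding it was 136 and 119 RPKM in input and 108 and 78.8 in TRAP, with a log2 difference of -0.46 and an adjusted p of 0.0500151, narrowly above the threshold. It fell past the threshold without library 1 of band TRAP (adjusted p = 0.00205). Tyrobp was also called lower in band hearts with a filter of 5 RPKM (adjusted p = 0.0466), after quantile normalization (0.0107), after rescaling without the most abundant genes (0.0123) and with the length trend removed (0.0259). In sham hearts it was called after quantile normalization (adjusted p = 0.0350) and with the length trend removed (0.0490). Fcer1g was 23.1 and 21.9 RPKM in sham input and 14.0 and 13.9 in sham TRAP, with a log2 difference of -0.65 (adjusted p = 0.114, limma). Without either band TRAP library, which enter only through the shared estimate of spread, Fcer1g (adjusted p = 0.00156 and 0.00158) and Tyrobp (adjusted p = 0.0283 and 0.0286) were called lower in sham hearts as well. The band TRAP libraries of Fcer1g disagreed, at 28.6 and 13.7 RPKM against 34.3 and 27.7 in band input, and it was the only member whose band groups overlapped. Leaving out band TRAP library 1 gave Fcer1g a fall of 1.11 (adjusted p = 0.000448), and leaving out library 2 gave a difference of -0.10 (adjusted p = 0.517). Both band TRAP libraries lay below both band input libraries for the other 9 members, and for 41.6% of all tested genes. Cd52, a small surface glycoprotein of leukocytes in general, was 25.7 and 27.2 RPKM in sham input and 14.8 and 13.4 in sham TRAP. It fell by 0.86 in sham (SE 0.126, adjusted p = 0.00284, limma) and by 1.02 in band TRAP (adjusted p = 0.00133).

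Transcripts of other non-muscle cells were also low in CAG TRAP. Of the fibroblast markers 7 of 8 were called lower in sham TRAP, with sums of 303 to 308 RPKM in input and 138 to 147 in TRAP. All 4 erythroid markers tested were lower as well, with sums of 2258 to 2333 RPKM in sham input and 185 to 189 in TRAP. Over all tested genes 24.5% were called lower. The fibroblast marker Pdgfra and the erythroid marker Alas2 were below 1 RPKM in every CAG TRAP library, so counts that include them are descriptions. Endothelial markers did not share this pattern in sham hearts, with 1 of 10 lower. Their sums were 888 to 962 RPKM in input and 995 to 996 in TRAP, and without Fabp4 they were 126 to 131 and 117 to 119. Reads of mitochondrially encoded genes made up 14.0% to 15.3% of the sham input libraries and 0.147% to 0.293% of the sham TRAP libraries. The part of these shifts in the members' values was not tested. The scaling of the libraries also moved the calls over all genes. As deposited, 1763 genes were called higher and 2852 lower in sham hearts, and 1938 and 3026 in band hearts. After rescaling without the most abundant genes these were 1255 and 3813 in sham and 1326 and 4150 in band hearts, with 7 and 9 members lower against 32.7% and 35.6% of all tested genes. After quantile normalization they were 2053 and 1851 in sham and 2544 and 1955 in band hearts, with 8 members lower in each against 15.9% and 16.8% of all tested genes.

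**Figure D2:**
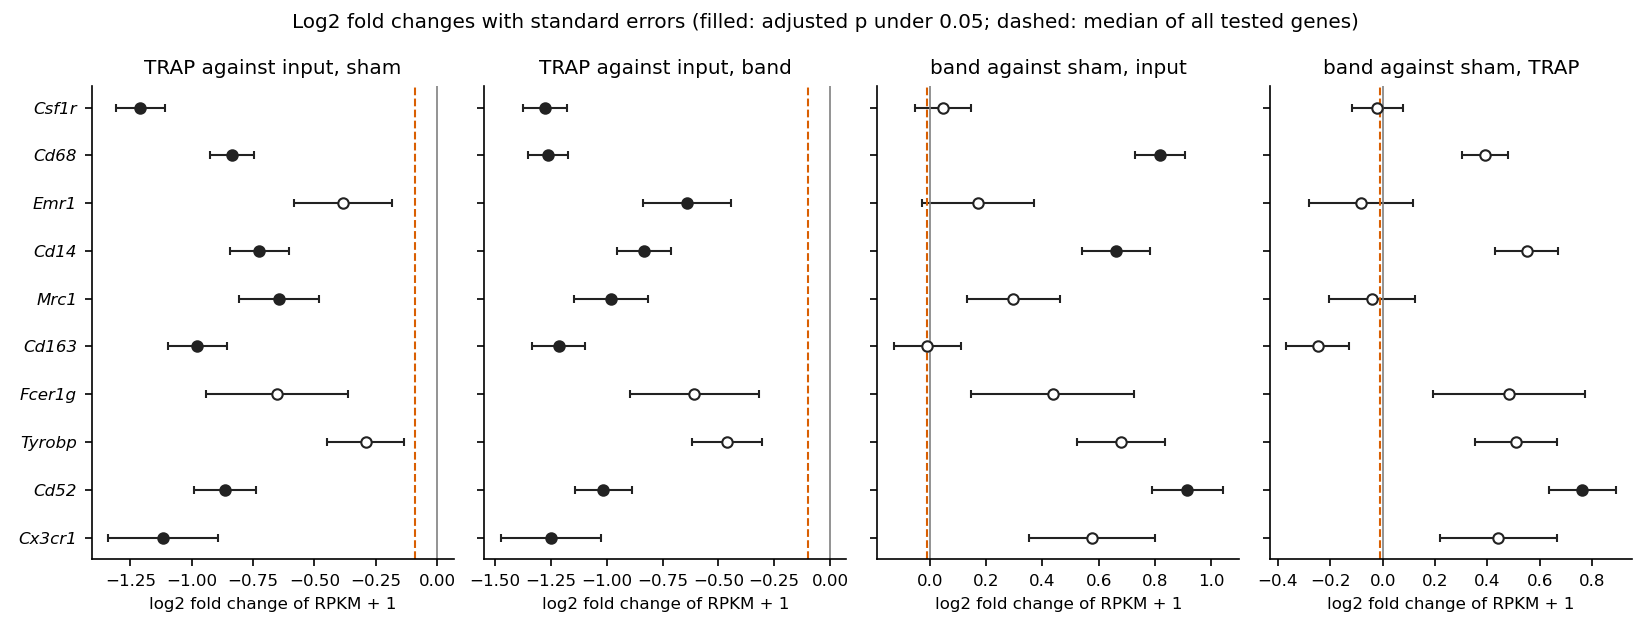
Log2 fold change of RPKM + 1 with its standard error for each gene in 4 comparisons, where filled points have an adjusted p under 0.05 and the dashed line is the median of all tested genes. The points of both TRAP against input panels lie left of 0 for all 10 genes, and in band against sham input Cd52, Cd68 and Cd14 are filled while Csf1r and Cd163 lie near 0.

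Banding was compared with sham surgery to ask which of these transcripts differ in the pressure-overloaded heart. In input, 3 of 10 members were higher after banding and none lower, against 2.44% of all tested genes called higher. The 3 were Cd52, which rose 1.92-fold in mean RPKM, Cd68, which rose 1.82-fold, and Cd14, which rose 1.66-fold. Csf1r and Cd163 showed no such difference, with RPKM ratios of 1.04 and 0.994. The members' median log2 fold change was 0.51, against -0.01 over all tested genes. A different number of macrophages in a sample and a different level of a transcript per macrophage cannot be told apart in whole-heart RNA.

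In detail, Cd68 was 11.5 and 12.9 RPKM in sham input and 22.1 and 22.4 in band input, a rise of 0.82 (SE 0.0889) on the log2 scale with an adjusted p of 0.00668 (limma). Cd52 was 25.7 and 27.2 RPKM against 54.4 and 47.3, a rise of 0.92 (SE 0.126, adjusted p = 0.0148). Cd14 was 8.24 and 8.68 RPKM against 15.4 and 12.7, a rise of 0.66 (SE 0.121, adjusted p = 0.0321). In all 3 the band libraries lay above the sham libraries with no overlap. This was also so for Mrc1, Fcer1g, Tyrobp and Cx3cr1, giving 7 of 10 members against 28.7% of all tested genes. Tyrobp, at 73.9 and 84.6 against 136 and 119 RPKM, missed the threshold with a log2 difference of 0.68 (adjusted p = 0.0639, limma). Cx3cr1, at 4.40 and 5.55 against 9.02 and 6.83 RPKM, had a log2 difference of 0.58 (adjusted p = 0.224). Fcer1g had a difference of 0.44 (adjusted p = 0.483) and Mrc1 of 0.30 (adjusted p = 0.391). Csf1r, at 12.5 and 12.3 against 13.6 and 12.1 RPKM, had a log2 difference of 0.05 (SE 0.0983, adjusted p = 0.861, limma). Cd163, at 2.24 and 2.26 against 2.01 and 2.46 RPKM, had one of -0.01 (SE 0.119, adjusted p = 0.976), and the sham and band libraries of both genes overlapped.

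The 3 calls depended on the libraries used. Without any single one of the 4 input libraries these calls were lost, and so were most calls over all tested genes. The log2 differences then ran from 0.74 to 0.89 for Cd68, 0.81 to 1.02 for Cd52 and 0.53 to 0.79 for Cd14. Cd14 was also not called without either sham TRAP library (adjusted p = 0.0798 and 0.0797). Without either band TRAP library 6 members were called higher, the additional ones being Tyrobp (adjusted p = 0.00513 and 0.00523), Fcer1g (adjusted p = 0.0319 and 0.0321) and Cx3cr1 (adjusted p = 0.0422 and 0.0425). The share of all tested genes called higher also rose in these fits, from 2.44% to 6.66% without library 1 and 6.62% without library 2. Cd14 was not called without the filter on low values (adjusted p = 0.0807), and Tyrobp was called after quantile normalization (adjusted p = 0.0309) and after rescaling (adjusted p = 0.0499).

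The ratio of another member's RPKM to that of Csf1r within a library was also described, with Csf1r taken because it barely differed. Cd68, Cd14 and Cd52 were already called higher, so their ratios restate those differences. The ratio of Cd68 to Csf1r was 0.926 and 1.05 in sham input and 1.63 and 1.85 in band input. That of Cd14 was 0.662 and 0.708 in sham and 1.13 and 1.05 in band input, and that of Cd52 was 2.06 and 2.22 against 4.01 and 3.91. In these genes the band ratios were above both sham ratios, and this was also so for Tyrobp, Fcer1g, Cx3cr1 and Mrc1. These are the 7 members whose band input libraries already lay above sham, as did those of 28.7% of all tested genes. Their ratios restate that, and the share of all tested genes whose ratio to Csf1r separated was not counted. The ratio of Cd163 to Csf1r overlapped, at 0.180 and 0.184 in sham and 0.148 and 0.204 in band input. That of Emr1 overlapped too, at 0.224 and 0.175 in sham and 0.252 and 0.201 in band input. In the TRAP libraries the ratio of Cd68 to Csf1r was likewise 1.37 and 1.31 in sham and 1.79 and 1.91 in band hearts. These ratios were not tested, and they show unequal change, not which gene changed.

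Neutrophil markers moved with the members in input. S100a9, a calcium-binding protein abundant in neutrophils, was 10.7 and 7.52 RPKM in sham input and 30.6 and 25.3 in band input, a rise of 1.53 (adjusted p = 0.0234, limma). Csf3r, the receptor of the granulocyte growth factor, was 0.575 and 0.556 RPKM in sham input and 1.65 and 1.19 in band input. It reached 1 RPKM only in band input and Tie2 TRAP, so its rise of 0.62 (adjusted p = 0.0426, limma) is a description. S100a9 and Csf3r were 2 of the 4 neutrophil markers tested, against 2.44% of all tested genes called higher. The sum over all 8 was 14.8 to 18.8 RPKM in sham and 40.0 to 52.5 in band input, with Ly6g at 0 in every library. Erythroid sums were 2258 to 2333 RPKM in sham and 1425 to 1807 in band input. T and NK cell markers overlapped, at 4.61 to 5.16 and 2.89 to 5.62 RPKM. The part of neutrophils and blood in the members' differences was not tested.

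In TRAP, banding was associated with a higher level of 1 member, against 2.21% of all tested genes called higher. Cd52 rose from 14.8 and 13.4 RPKM in sham TRAP to 27.3 and 22.1 in band TRAP, by 0.76 (SE 0.126) on the log2 scale with an adjusted p of 0.0249 (limma). Cd14, with 4.94 and 4.52 against 6.79 and 8.02 RPKM, had a log2 difference of 0.55 (adjusted p = 0.0588). Cd68, with 6.41 and 6.38 against 9.09 and 8.30 RPKM, had one of 0.39 (adjusted p = 0.0646), and Tyrobp one of 0.51 (adjusted p = 0.133, limma). In these 4 genes and in Cx3cr1 both band TRAP libraries lay above both sham TRAP libraries, 5 of 10 members against 21.9% of all tested genes. Cd163 was below 1 RPKM in all of these libraries, at 0.547 and 0.761 in sham TRAP and 0.475 and 0.309 in band TRAP. Its log2 difference was -0.25 (SE 0.119, adjusted p = 0.312, limma). Csf1r, Mrc1 and Emr1 lay between -0.08 and -0.02 on the log2 scale, with overlapping libraries. The Cd52 call was lost without any of the sham libraries and without either band input library, with adjusted p up to 0.202. It was also lost without the filter on low values (adjusted p = 0.0892), and with a filter of 5 RPKM Cd68 and Cd14 were called as well (adjusted p = 0.0435 and 0.0435). Without band TRAP library 2, 6 members were called, against 9.34% of all tested genes, and without library 1 there were 2, against 4.92%.

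Markers of other cells moved with banding in TRAP too. S100a9 rose from 0.653 and 1.52 RPKM in sham TRAP to 4.88 and 3.40 in band TRAP, by 1.32 (adjusted p = 0.0414, limma), the only one of 4 neutrophil markers tested that was called. All 8 neutrophil markers summed to 1.65 and 3.91 RPKM in sham and to 9.44 and 6.59 in band TRAP. The globin genes Hba-a1 and Hbb-b1, 2 of the 4 erythroid markers tested, fell by 1.65 (adjusted p = 0.0384) and by 1.04 (adjusted p = 0.0156, limma), and erythroid sums went from 185 and 189 RPKM to 55.7 and 101. The part of these markers in the members' differences was not tested.

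Whether banding changed the TRAP to input ratio itself was tested by the interaction of fraction and surgery. No member and no other gene was called by limma in either direction, a background of 0%, while 557 of the 11654 genes had an unadjusted p under 0.05. Among the members only Cd68 did, with a difference of -0.43 (SE 0.126, unadjusted p = 0.0113, adjusted p = 0.901), and the estimates were negative for 9 of 10 members, from -0.43 to 0.04. Over all genes this count of 0 rested on both band TRAP libraries: without library 1, 11 genes were called higher and 186 lower, and without library 2, 18 higher and 60 lower, with no member among them.

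Hearts without surgery gave 1 library of each kind, so their ratios have no replicate check and are given with 95% intervals that cover counting error only. In CAG hearts 9 of 10 members were lower in TRAP than in input. The ratio of RPKM ran from 0.288 (0.233 to 0.355) for Mrc1 to 1.12 (1.05 to 1.21) for Tyrobp, with a median of 0.554 against 0.771 over all tested genes. Mrc1, Cd163 (ratio 0.294), Cx3cr1 (0.431) and Csf1r (0.443) were at least 2-fold lower, 4 of 10 members against 21.4% of all tested genes. Tyrobp had the highest ratio of the members here, as it did in sham (0.813) and band hearts (0.731).

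In Tie2 hearts all 10 members were at least 2-fold higher in TRAP than in input, as were 38.6% of all tested genes. The median ratio was 7.07 against 1.53 over all tested genes. Emr1 had the highest ratio, with 1.39 RPKM in input and 21.9 in TRAP, a ratio of 15.8 (13.8 to 18.2). The adaptors followed. Fcer1g went from 24.5 to 331 RPKM, a ratio of 13.5 (12.6 to 14.5), and Tyrobp from 97.7 to 1024 RPKM, a ratio of 10.5 (10.1 to 10.9). Cd14 had 4.99 RPKM in input and 52.1 in TRAP, a ratio of 10.5 (9.41 to 11.6). The other 6 had ratios between 4.92 and 7.42. These were Mrc1 (1.38 and 10.3 RPKM), Cx3cr1 (4.31 and 28.9 RPKM), Cd68 (12.2 and 80.7 RPKM), Cd52 (25.7 and 159 RPKM) and Cd163 (2.76 and 15.2 RPKM). Csf1r, with 17.1 and 84.3 RPKM, had the lowest ratio, 4.92 (4.75 to 5.09).

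**Figure D3:**
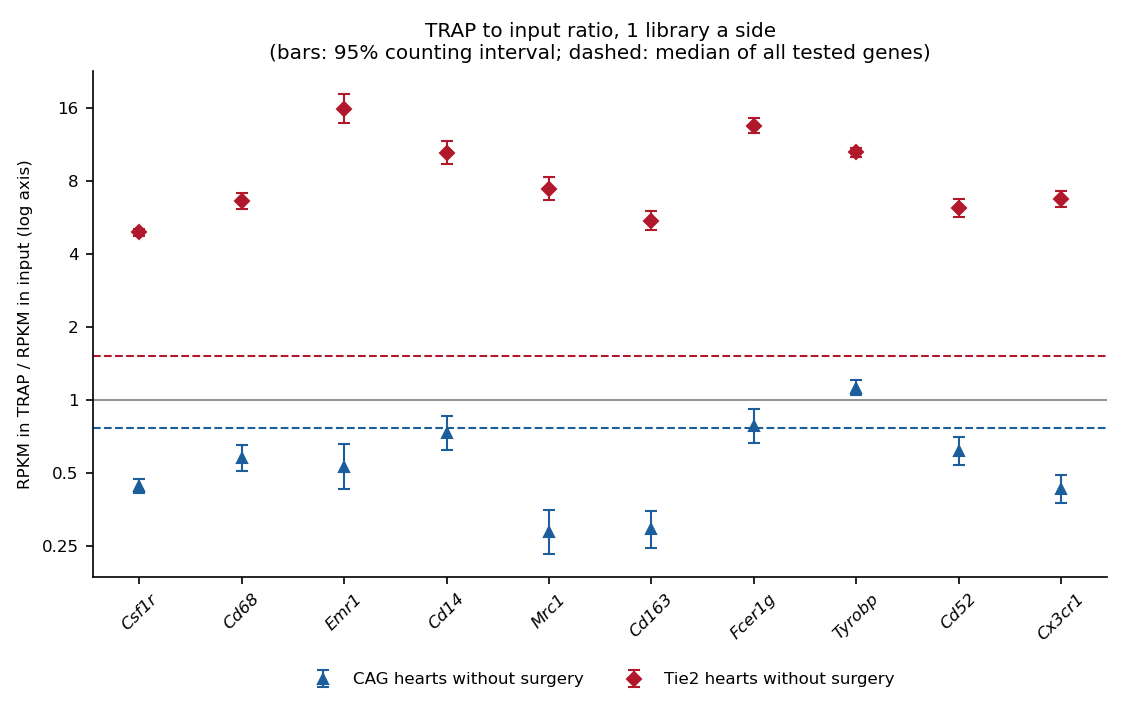
Ratio of RPKM in TRAP to RPKM in input (log axis) in hearts without surgery, 1 library a side, with 95% counting intervals and dashed lines at the median of all tested genes (0.771 for CAG, 1.53 for Tie2). All 10 Tie2 points lie above 4, and all CAG points except Tyrobp lie below 1.

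Compared directly, Tie2 TRAP exceeded CAG TRAP 10.7-fold for Cd52 to 36.0-fold for Fcer1g (33.1 to 39.2), with a median of 17.5 against 2.22 over all tested genes. All 10 members were past 2-fold, as were 53.7% of all tested genes. The input libraries of the same hearts were much closer. Their Tie2 to CAG ratio ran from 0.885 for Emr1 to 2.08 (1.79 to 2.43) for Fcer1g, and Fcer1g was the only member at 2-fold or more, against 3.62% of all tested genes. Csf1r (1.61) and Tyrobp (1.51) were also higher in Tie2 input beyond counting error, and so was Cd163 (1.27, 1.10 to 1.47). The median ratio was 1.09 for the members and 1.09 over all tested genes. Mitochondrially encoded reads made up 3.17% of Tie2 input and 14.3% of CAG input. The part of this shift in the ratios was not tested.

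Markers of several other cells shifted in Tie2 TRAP as well. All 10 endothelial markers were at least 2-fold higher in TRAP than in input, with a median ratio of 10.7, and all 8 cardiomyocyte markers were at least 2-fold lower. B cell markers summed to 63.8 RPKM against 8.94 in input, of which Ighm, the heavy chain of IgM, gave 54.2 and 7.13. The antigen receptor chains Cd79a and Cd79b were 4.98 and 4.01 RPKM in Tie2 TRAP against 1.05 and 0.612 in input, while the B cell gene Ms4a1 was at 0.010 RPKM. Mast and dendritic cell markers summed to 96.9 RPKM against 14.2, led by the mast cell proteases Tpsb2 at 35.5 against 4.49, Cma1 at 27.6 against 3.07 and Mcpt4 at 18.8 against 3.42. Neutrophil markers summed to 48.0 RPKM against 31.3, with S100a8 at 16.7 against 2.44 and Retnlg at 2.97 against 1.11. S100a9, the most abundant of them in both libraries, was not higher in TRAP, at 25.8 RPKM against 27.3 in input. T and NK cell markers summed to 5.48 RPKM against 2.71. Nkg7 was 1.62 RPKM in Tie2 TRAP against 0.476 in input, Cd3e 0.540 against 0.346, Gzma 0.529 against 0.272 and Cd4 1.29 against 0.122. Cd3g, at 0.252 against 0.583 RPKM, and Cd3d, at 0.312 against 0.466, went the other way. Fibroblast markers summed to 795 RPKM against 291. Smooth muscle and pericyte markers were lower in sum, at 209 RPKM against 330, and so were erythroid markers, at 549 against 2355. The share of the members' Tie2 TRAP signal that came from tagged leukocytes rather than from tagged endothelial cells was not tested.

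**Figure D4:**
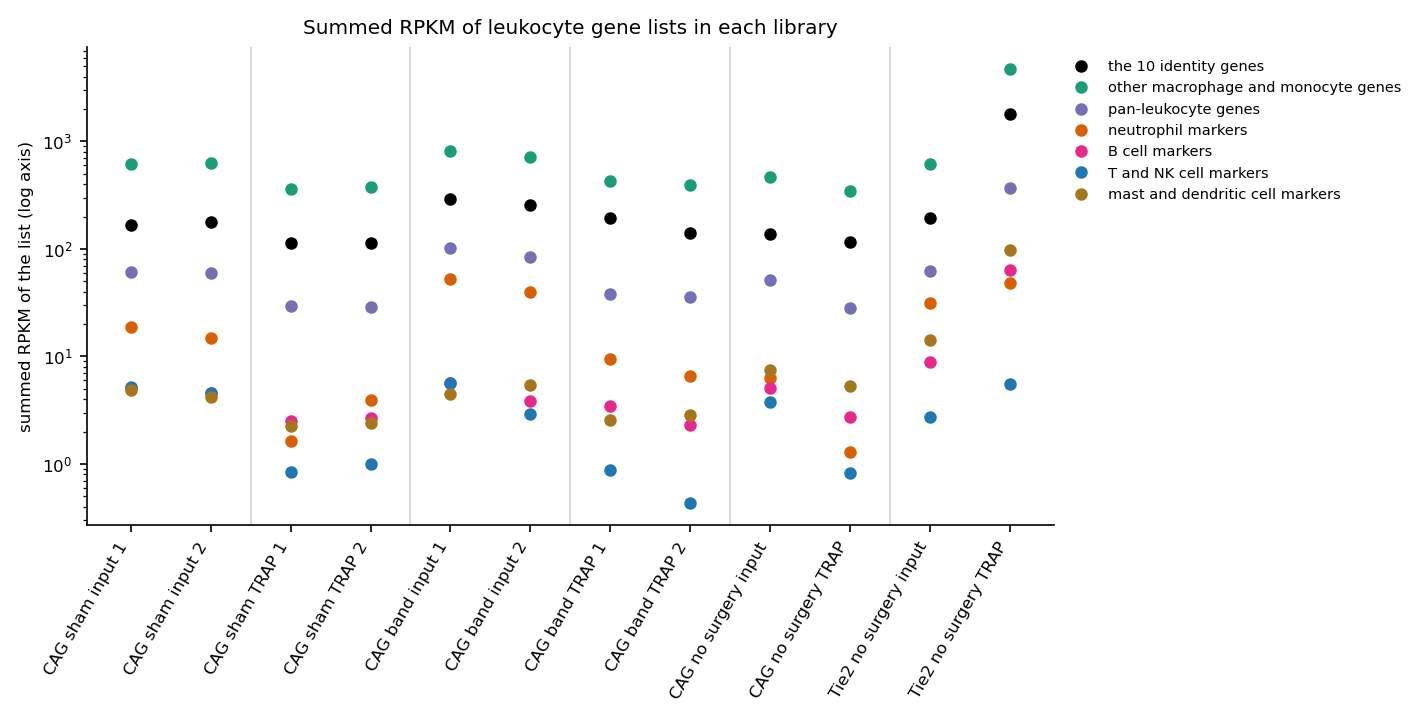
Summed RPKM (log axis) of the 10 identity genes and of 6 further leukocyte lists in each of the 12 libraries. In Tie2 TRAP the 10 genes sum to 1808 RPKM and the other macrophage and monocyte genes to 4741. T and NK cell markers sum to 5.48 RPKM there and to 2.71 in Tie2 input.

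The ligands and partners of the members were all expressed, and their pattern was mixed. Csf1 was 11.1 and 11.4 RPKM in sham input and 8.15 and 7.47 in sham TRAP, with no call in any comparison, and Il34, between 1.85 and 2.39 RPKM in the operated libraries, was not called either. Cx3cl1, the ligand of Cx3cr1, was the one gene of this list higher in sham TRAP. It rose from 2.11 and 1.91 RPKM in input to 3.05 and 2.75 in TRAP, by 0.37 (adjusted p = 0.0328, limma). Its receptor fell, as given above. The fractions of band hearts differed by 0.27 for Cx3cl1, short of the threshold (adjusted p = 0.0812). Of the 11 partners, 5 were lower in TRAP in both sham and band hearts, namely Csf2ra, Csf2rb, Hmox1, Il4ra and Lbp. Over all tested genes 24.5% were called lower in sham and 26% in band hearts. Csf2rb was below 1 RPKM in every CAG TRAP library, so this count is a description. Tlr4, Ly96 and Hp were not called in any comparison. Hmox1, the haem-degrading enzyme acting downstream of Cd163, was 5.85 and 5.75 RPKM in sham input and 11.9 and 10.5 in band input, a rise of 0.84 (adjusted p = 0.0165, limma). It also rose in band TRAP, by 0.68 (adjusted p = 0.0337), and Cd163 itself was not called in either fraction. Il4ra, a receptor chain for interleukins that induce Mrc1, rose by 0.75 in band input (adjusted p = 0.0140), from 1.88 and 1.87 RPKM to 3.70 and 3.998.

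Downstream of the adaptors, 7 of the 16 listed ITAM receptors and kinases were tested. In sham TRAP 3 were lower, Inpp5d, Lyn and Syk, and the median of the 7 was -0.37 on the log2 scale. In band TRAP all 7 were lower, with a median of -0.88. Over all tested genes 24.5% were called lower in sham and 26% in band TRAP. Inpp5d was below 1 RPKM in every CAG TRAP library, so these counts are descriptions. Syk was 3.04 and 2.61 RPKM in sham input and 1.83 and 1.78 in sham TRAP. Clec4n, a lectin receptor that signals through Fcer1g, was 2.86 and 3.17 RPKM in band input and 1.295 and 0.554 in band TRAP, a fall of 1.09 (adjusted p = 0.00401, limma). Lat2, an adaptor of myeloid and B cells named here after its values were seen, was the only one of this list higher in band input, by 0.98 (adjusted p = 0.0115, limma).

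Other macrophage and monocyte genes were mostly lower in TRAP as well. Of the 26 tested, 23 were lower in sham TRAP (median log2 fold change -0.71) and 23 in band TRAP (median -0.91). Over all tested genes 24.5% and 26% were called lower. Itgam, Siglec1 and Mpeg1 were below 1 RPKM in every CAG TRAP library and entered the test through libraries where they were high. Counts that include them are descriptions. The complement genes C1qa, C1qb and C1qc had the highest mean RPKM over the 12 libraries, although Lyz2, the lysozyme of macrophages, exceeded C1qc in the CAG input libraries, for example at 87.9 and 88.5 against 76.5 and 84.8 RPKM in sham input. C1qa was 130.0 and 130.2 RPKM in sham input and 85.1 and 86.8 in sham TRAP. In band input 3 of the 26 were higher, Fcgr1, Itgam and Lgmn, against 2.44% of all tested genes. In band TRAP 2 were higher, Fcgr1 and Pf4, against 2.21%. All were named after their values were seen. Fcgr1, an IgG receptor that signals through Fcer1g, rose by 0.56 in band input (adjusted p = 0.0287, limma) and by 0.50 in band TRAP (adjusted p = 0.0441). Among pan-leukocyte genes 9 of the 10 tested were lower in sham TRAP and all 10 in band TRAP, and 5 were higher in band input. The shares of all tested genes were 24.5%, 26% and 2.44%. Cd37, Cd48 and Vav1 were below 1 RPKM in every CAG TRAP library, so counts that include them are descriptions. Arhgdib fell from 14.9 and 14.7 RPKM in sham input to 9.16 and 8.63 in sham TRAP, by 0.68 (adjusted p = 0.00188, limma), and rose in band input by 0.49 (adjusted p = 0.0293). Coro1a, an actin-binding protein of leukocytes, rose from 7.51 and 7.90 to 17.2 and 13.3 RPKM in band input, by 0.89 (adjusted p = 0.0148, limma), and in TRAP by 0.70 (adjusted p = 0.0320).

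Genes whose pattern over the 12 libraries was most like the mean standardised pattern of the members were Sfpi1 (Pearson r = 0.993), Lyz2 (0.992), Ptafr, Csad, Rassf4, Laptm5, Tifab, Fam105a, Nckap1l and C1qb (0.989). Of 11644 genes, 8 exceeded 0.99. The members' own correlation with their mean ran from 0.935 for Cd163 to 0.987 for Mrc1. All these values describe libraries in which Tie2 TRAP is the one extreme point. Over the 8 operated CAG libraries alone, a choice made after seeing the data, the most like genes were Fbn1 (0.998), Atp8b2, Man1a2, Cirbp, Arfgap1, Fyb, Nckap1l, Ddx46, Kif5b and Msn (0.9904), and only Nckap1l was in both lists. Sfpi1 itself was 6.05 and 5.92 RPKM in sham input, 11.2 and 8.72 in band input and 48.3 in Tie2 TRAP. Its difference between band and sham input was 0.64 and missed the threshold (adjusted p = 0.0553, limma).

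Transcript length varied with the TRAP to input difference, both over all genes and among the members. Over all tested genes the median log2 fold change in sham hearts was 0.24 for transcripts of up to 1000 bases, 0.03 from there to 3000 bases and -0.27 above. The 3 shortest members, Cd52 (514 bases), Tyrobp (564) and Fcer1g (674), had a median of -0.65. Cd68 (1230 bases) and Cd14 (1572) had a median of -0.78, and the 5 members above 3000 bases, Csf1r, Emr1, Mrc1, Cd163 and Cx3cr1, had one of -0.98. Each group of members lay below the genes of its own length class, also in band hearts, where the members' medians were -0.61, -1.05 and -1.22 and those of all genes 0.15, 0.02 and -0.25. Across the 10 members Pearson's r between log2 length and log2 fold change was -0.42 in sham and -0.52 in band hearts, as a description of genes that share libraries. With the length trend of each library removed, 7 of 10 members were called lower in sham and 9 in band hearts, against 19.1% and 22.6% of all tested genes. In sham hearts Mrc1 was no longer called (-0.43, adjusted p = 0.0712, limma) and Tyrobp was (-0.56, adjusted p = 0.0490), and in band hearts Tyrobp was added (adjusted p = 0.0259).

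**Figure D5:**
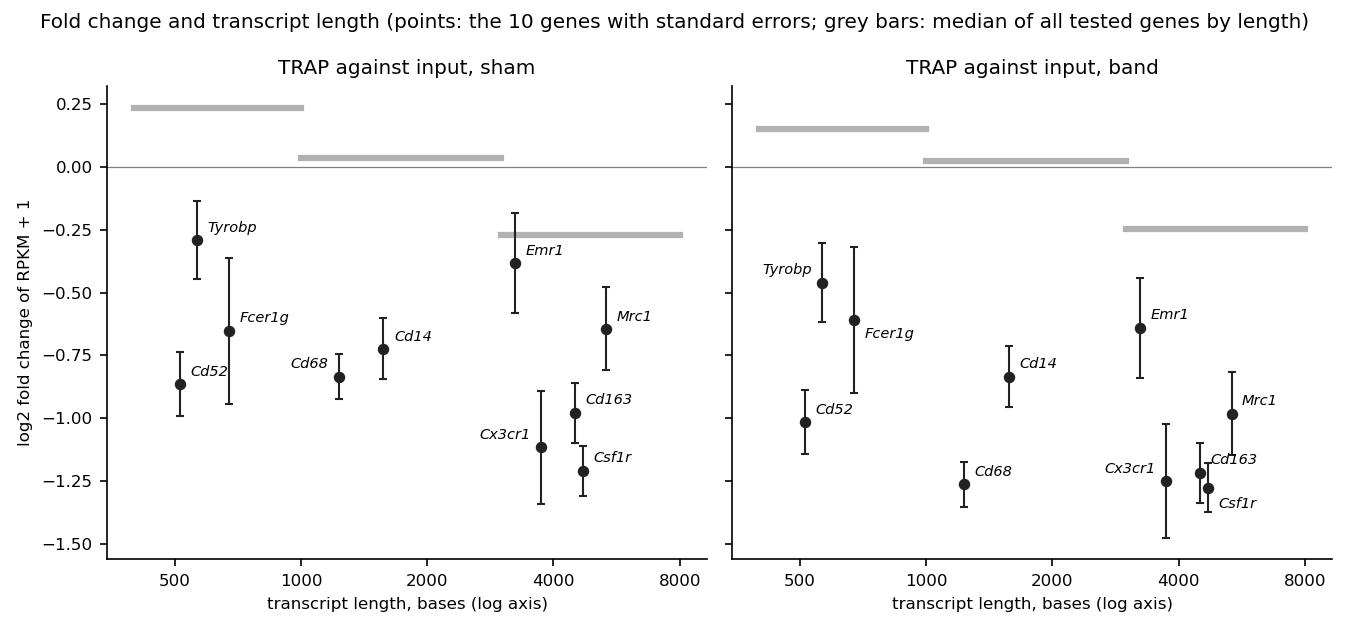
Log2 fold change of TRAP against input with its standard error (vertical axis) and transcript length in bases (horizontal log axis) for each of the 10 genes in sham and band hearts, with grey bars at the median of all tested genes in 3 length classes, drawn to the edge of the range shown. All points lie below the grey bar of their class, from -0.29 for Tyrobp to -1.21 for Csf1r in sham hearts.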

How the data were processed

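Poly(A) RNA of adult mouse hearts was sequenced from cytoplasmic input and TRAP fractions in 12 libraries, without strand information per the labels' protocols. The authors deposited RPKM values for 34306 genes with the length of 1 transcript each. CASAVA 1.8.2, TopHat 1.4, HTSeq 0.5.3 and build NCBIM37 are named per the submitters' processing notes, and no annotation is given in the sources used here. The columns were matched by name to groups of the later of 2 deposits (24 of 53 samples), whose titles end in l1 or l2, and how these became single columns is not stated in the labels. RPKM multiplied by length fell on whole reads within 0.02 reads for all 233405 values judged, which gave the library totals and counting intervals, and 0 columns were left unmapped. Replicates differed by more than sampling noise, so no library was counted as a duplicate.

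Values were tested with limma 3.58.1 (R 4.3.3, trend) on log2(RPKM + 1) for the 11654 genes that reached 1 RPKM in 2 or more libraries. All 12 libraries entered 1 fit with a mean for each group, and p-values were adjusted by Benjamini-Hochberg over all genes tested, two-sided, with a threshold of 0.05. The script was tested on simulated data. For hearts without surgery, ratios of RPKM carry 95% exact binomial intervals. Alternatives were other pseudocounts, filters, scalings, removal of the length trend, fewer libraries and a block for the replicate number. All members are named, with the 3 most abundant genes of each related list, every partner and the 10 genes of most like pattern. Members, lists and tests were chosen with earlier results of these data known. The list of markers came from the same choice.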

Additional observations from a re-analysis of the deposited data

Results flagged for a closer look

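In hearts without surgery, 9 of the 10 members were below their input in CAG TRAP and above it in Tie2 TRAP. Each side holds 1 library, so the difference between the lines was not tested. As differences of log2 TRAP to input ratios (Tie2 minus CAG), they were 4.90 for Emr1, 4.69 for Mrc1, 4.22 for Cd163, 4.12 for Fcer1g, 3.96 for Cx3cr1, 3.83 for Cd14, 3.52 for Cd68, 3.47 for Csf1r and 3.33 for Cd52. Emr1 had a log2 ratio of -0.91 in CAG and 3.98 in Tie2 hearts, and Cd52 had -0.70 and 2.63. Tyrobp was not among them because its ratio was above 1 in both lines.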

How the results depend on the processing

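With 2 libraries a group, single libraries decided several calls. Leaving out 1 library at a time moved the number of members called higher in band input between 0 and 6 (3 with all libraries) and in band TRAP between 0 and 6 (1 with all). In band TRAP the number of members was 0 with no filter on low values, against 0.504% of all tested genes. It was 3 with a filter of 5 RPKM, which tested 7 members, against 4.29%. In CAG hearts without surgery, the members at least 2-fold lower in TRAP numbered 1 with a pseudocount of 1 (chosen after seeing the data), 1 with the length trend removed and 0 after quantile normalization. In Tie2 against CAG input, the 1 member past 2-fold became 0 with a pseudocount of 1, after quantile normalization, after rescaling and with the length trend removed. For both of these 2-fold counts, the share over all tested genes was not counted under the other settings. Whether the drop is particular to the members was thus not tested. The sign of small differences was not stable. For band against sham input Cd163 became 0.015 with the length trend removed, and for TRAP Csf1r became 0.0023 after quantile normalization. With 1 library left out, band against sham input ran from -0.031 to 0.12 for Csf1r, -0.010 to 0.35 for Emr1 and -0.11 to 0.092 for Cd163. Band against sham TRAP ran from -0.11 to 0.070 for Csf1r, -0.33 to 0.16 for Emr1, -0.29 to 0.21 for Mrc1 and -0.023 to 0.99 for Fcer1g. The interaction ran from -0.16 to 0.023 for Csf1r, -0.24 to 0.019 for Cd14, -0.46 to 0.55 for Fcer1g, -0.39 to 0.054 for Tyrobp and -0.45 to 0.18 for Cx3cr1. The cause was not tested in any of these. With 1 library left out, the number of members called lower in TRAP changed, and so did the share of all tested genes called lower. The differences of TRAP against input stayed negative, and in band hearts ran from -1.11 to -0.10 for Fcer1g and from -0.69 to -0.24 for Tyrobp. Quantile normalization moved the median of all genes by 0.14 in sham and 0.15 in band hearts and rescaling moved it by -0.11 in band hearts, and no called member changed direction under either. Quantile normalization ended the call of Emr1 in band TRAP against input (adjusted p = 0.0784), and Tyrobp became called in TRAP against input of sham (0.0350) and band hearts (0.0107) and in band input (0.0309). Rescaling made Tyrobp called in band TRAP against input (0.0123) and in band input (0.0499).

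Replicate numbers are shared between groups, but nothing in the labels says that they pair the samples, and deviations of same-numbered libraries correlated at -0.17, 0.030, -0.054 and -0.43 over 11654 genes. With the replicate block, members called lower in TRAP stayed at 7 in sham and 8 in band hearts, against 22.6% and 24.0% of all tested genes. Members called higher were 2 in band input, where Cd14 dropped out (adjusted p = 0.0683, limma), and 1 in band TRAP, against 1.57% and 1.37%. Over all genes, the genes called higher changed from 284 to 183 in band input and from 257 to 160 in band TRAP.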
